A study of Kluyveromyces lactis with 12 samples.

Results

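On 4 of the 12 arrays of the series, Kluyveromyces lactis cells lacking the transcription factor KlYap8 (Klyap8∆) were set against the wild type (Klwt) after exposure of both strains to tert-butyl hydroperoxide (t-BOOH). These arrays were taken by their titles, t-BOOH repetitions 1 to 4, here called replicates. Cells of this budding yeast were growing exponentially in YPD, a rich glucose medium, and were exposed to 0.25 mM t-BOOH for 30 min. Each array carried total RNA of the deletion strain in 1 dye and of the wild type in the other, with the deletion strain in Cy5 on replicates 1 and 3 and in Cy3 on replicates 2 and 4. The other arrays held the same pair of strains untreated (4 arrays) or exposed to sodium arsenite for 30 min (4 arrays) and serve here as a reference. The design text calls the 4 arrays of a condition biological experiments. The sources used here do not say how the deletion was made or whether the strain is 1 clone.

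t-BOOH is an organic hydroperoxide that yeast cells remove mainly with thiol peroxidases and glutathione-dependent enzymes. Yap8, also named Arr1, belongs to the yeast AP-1 family of bZIP factors and is known in Saccharomyces cerevisiae for switching on genes of arsenic resistance such as the arsenate reductase ARR2, whereas its relative Yap1 leads the response to peroxides there. The t-BOOH arrays therefore address what the loss of Yap8 changes under a stress other than arsenic. Roles given below are those of the S. cerevisiae counterparts unless another species is named.

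Values are log2 ratios of deletion over wild type, so a negative value means less RNA in the deletion strain. The ratios compare bulk cultures, in which less RNA per cell and fewer cells that express a gene cannot be told apart. A gene was called when its Benjamini-Hochberg adjusted p in limma's test of the mean of the 4 ratios against 0 was under 0.05. Of 5081 genes on the array, 5059 were tested. Of these, 103 were called (2.04%), 11 higher in the deletion strain (0.217%) and 92 lower (1.82%). At an unadjusted p under 0.05 there were 1209 genes (23.9%). The ratio was above 0 on all 4 arrays for 758 genes (15%) and below 0 on all 4 for 808 (16%).

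Replicate 3 went its own way over most of the transcriptome, and this bears on every count below. Over the 5059 genes, its ratios correlated with those of replicates 1, 2 and 4 at Pearson r of 0.00835, 0.0705 and 0.0235. The other arrays correlated with each other at 0.709 (replicates 1 and 2), 0.525 (1 and 4) and 0.842 (2 and 4). These coefficients are across genes, which are not independent replicates, and the arrays share the probes and a slide. With the 4 untreated arrays replicate 3 correlated at 0.0776, 0.162, 0.136 and 0.365. Only the last, with untreated replicate 4, was above the values of t-BOOH replicates 1, 2 and 4 (0.0277 to 0.0821). With the mean of the untreated arrays it correlated at 0.291, against 0.102, 0.16 and 0.21 for replicates 1, 2 and 4. With the mean of the arsenite arrays it correlated at 0.00773, against 0.187, 0.242 and 0.259. The median Cy3 intensity of replicate 3 was 1168.75, against 719, 1330.5 and 1610.25 on replicates 1, 2 and 4. The 2 spots per gene differed by an SD of 0.05 on replicate 3, against 0.11, 0.06 and 0.05 on replicates 1, 2 and 4. Replicate 1 had the lowest Cy3 intensity and the widest spot spread. The cause of the departure of replicate 3 was not tested.

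The departure can be read from arrays that took no part in choosing the genes. Of the 200 genes with the highest mean ratio on replicates 1, 2 and 4, only 64 were above 0 on replicate 3, where their median was -0.23. When replicate 1, 2 or 4 was held out in the same way, 169, 194 and 173 of 200 were above 0, with medians of 0.62, 0.67 and 0.57. The lower side held better. Of the 200 lowest genes of the other arrays, 130 were below 0 on replicate 3 (median -0.21), against 190, 196 and 190 on replicates 1, 2 and 4. About as many genes as not are above 0 on any array (50.5% on replicate 3).

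Leaving out replicate 3 raised the calls to 1195 (23.6%), 540 higher (10.7%) and 655 lower (12.9%). On replicate 3 itself, 235 of the 540 higher genes (43.5%) were above 0, against 50.5% of all genes, and their median was -0.07 against 0.57 on the other arrays. Of the 655 lower genes 379 (57.9%) were below 0 on replicate 3, against 49.5% of all genes, with a median of -0.09 against -0.65. Leaving out replicate 1, 2 or 4 instead left 4 called genes in each case, ARR1, ARR2, BIO4 and INO1, all lower. The other 99 genes each lost their call in all of these cases. Leaving out an array gave means of -1.084 to -1.071 for STE2 and -1.107 to -1.025 for ARG3, but -2.497 to -1.826 for MCH4. A lost call thus does not by itself show that a mean rests on 1 array. With trend and robust estimation of the spread no gene was called (lowest adjusted p = 0.106, 1150 genes at an unadjusted p under 0.05).

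**Figure D1:**
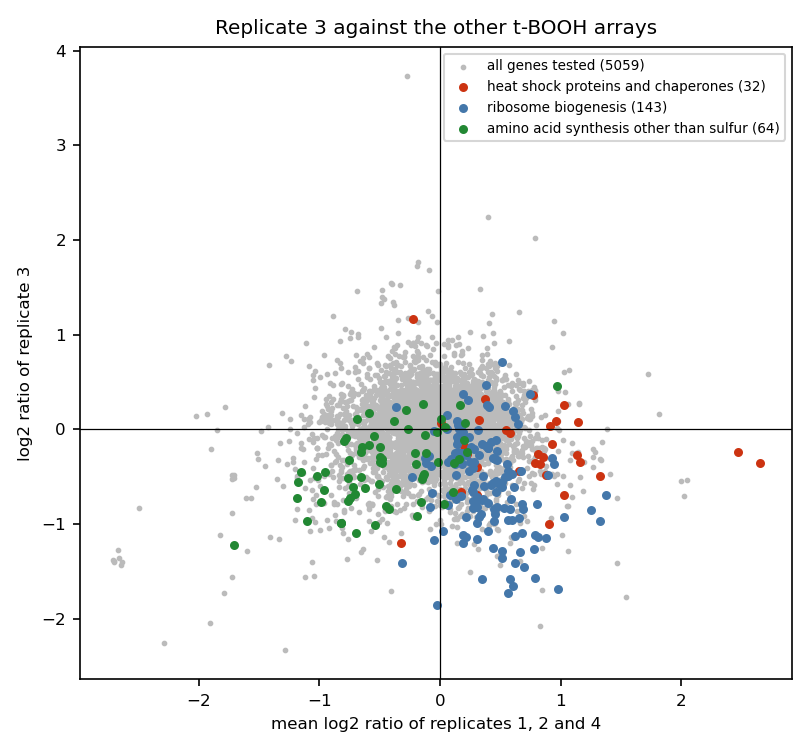
Log2 ratio of deletion over wild type on replicate 3 (vertical) against the mean of replicates 1, 2 and 4 (horizontal), 1 point per gene (5059), with 3 gene lists in colour. Most chaperone and ribosome biogenesis genes lie right of 0 and below it, and most amino acid synthesis genes lie below 0 on both axes.

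ARR1, the gene of Yap8, checks the labels. Its ratio was -1.79, -1.59, -1.56 and -1.81 on replicates 1 to 4, a mean of -1.69 ± 0.13 (SD, n = 4), or 3.22-fold lower (limma adjusted p = 0.0029). It was lower in the channel labelled as deletion on every array, replicate 3 included, and its mean was -1.13 untreated and -2.09 under arsenite. Signal was reduced, not lost, and nothing in the labels or files used here says whether its probe falls inside the stretch that was removed. Its neighbour ARR2, an arsenate reductase, read -1.84, -2.05, -2.05 and -1.83, a mean of -1.95 ± 0.12 (SD, n = 4), 3.85-fold lower (limma adjusted p = 0.0015). The ratio of ARR2 under t-BOOH was close to its untreated mean of -1.65, while its mean under arsenite was -4.40. The difference between t-BOOH and untreated ratios was not called for ARR1 (adjusted p = 0.16) or ARR2 (adjusted p = 0.36).

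INO1, the inositol 3-phosphate synthase that makes inositol for phospholipids, had the lowest mean ratio among the 4 genes that stayed called without replicate 1, 2 or 4. It read -2.06, -2.24, -2.26 and -2.57, a mean of -2.28 ± 0.21 (SD, n = 4), 4.86-fold lower (limma adjusted p = 0.0015). All 4 arrays were more negative than the untreated mean of -1.14. Of 26 measured genes of inositol and phospholipid synthesis INO1 alone was called, 5 were below 0 on all 4 arrays, and the list median was -0.0044, beside 0.0024 over all genes tested.

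The genes of biotin supply fell together. All 5 measured genes were called and all were below 0 on every array, against 1.82% of all genes called lower. These pathway groups (biotin, arginine, tryptophan, lysine, histidine, branched-chain amino acids, threonine and glycolysis) were chosen after their values were seen. BIO4, dethiobiotin synthetase, read -1.78, -1.81, -1.74 and -1.78, a mean of -1.78 ± 0.03 (SD, n = 4), 3.42-fold lower (limma adjusted p = 0.0015). Its 4 arrays were nearly alike, while its untreated arrays ran from -1.33 to 0.38 (mean -0.55) and its arsenite mean was -0.02. The difference between t-BOOH and untreated ratios was not called for BIO4 (limma adjusted p = 0.10) or for any of the other 4 biotin genes (adjusted p of 0.10 to 0.96). BIO5, the transporter of a biotin precursor, read -1.81, -1.39, -1.28 and -1.62 (mean -1.52). BIO3, the aminotransferase of the step before BIO4, had a mean of -0.91. BIO5, BIO4 and BIO3 are the genes 10, 11 and 12 from an end of chromosome B in the RefSeq table. Elsewhere in the genome, VHT1, the biotin importer, averaged -1.02 and BIO2, biotin synthase, -0.97. The untreated mean of BIO2 (-1.004) and its arsenite mean (-1.11) were about as low as its mean under t-BOOH. Within the list of vitamin and cofactor synthesis, 6 of 21 measured genes were called, all lower. The additional gene was THI2, a regulator of thiamine synthesis, at -1.03. The list median was -0.25.

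Genes of amino acid synthesis were lower as a group, on replicate 3 as well. Of 64 measured genes outside the sulfur branch, 14 were called, all lower (21.9%, against 1.82% of all genes called lower), and 40 were below 0 on all 4 arrays (62.5%, against 16% of all genes). The list median was -0.40, -0.47, -0.36 and -0.51 on replicates 1 to 4, and the median over all genes tested lay within 0.01 of 0 on each. On the untreated arrays the median of the same genes was -0.15 and on the arsenite arrays -0.02.

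The arginine pathway carried much of this. Of 9 genes 6 were called, 8 were below 0 on all 4 arrays, and the median was -0.89. ARG3, ornithine carbamoyltransferase, read -1.16, -1.19, -0.97 and -0.94, a mean of -1.07 ± 0.13 (SD, n = 4), 2.09-fold lower (limma adjusted p = 0.017). The 4 arrays were close together. The other called genes were ARG1, argininosuccinate synthetase (mean -1.03), ARG56, a bifunctional enzyme gene of ornithine synthesis (-1.02), ARG2, acetylglutamate synthase (-0.98), ARG7, ornithine acetyltransferase (-0.89), and ARG8, acetylornithine aminotransferase (-0.88). Not called were the argininosuccinate lyase ARG4 (-0.45), CPA1 (-0.44), of carbamoyl phosphate synthesis, and the mitochondrial ornithine carrier ORT1 (-0.40), the last of which was at 0.18 on replicate 3.

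Other branches followed in part. In the tryptophan branch 3 of 5 genes were called and all 5 were below 0 on every array. TRP2, anthranilate synthase, averaged -1.07, TRP3 -0.83 and the tryptophan synthase TRP5 -0.76. In lysine synthesis 3 of 8 were called, the homoaconitase LYS4 (-0.86), the aminoadipate reductase LYS2 (-0.80) and the saccharopine dehydrogenase LYS9 (-0.74). Replicate 3 was the lowest array for LYS2 (-1.10) and LYS4 (-0.99). In the threonine branch the homoserine kinase THR1 (-0.86) and the aspartate semialdehyde dehydrogenase HOM2 (-0.64) were called of 5. No gene was called of 7 for histidine, of which 6 were below 0 on all 4 arrays (median -0.43), or of 9 for isoleucine, valine and leucine (median -0.26). PCL5, the cyclin that in S. cerevisiae promotes breakdown of the amino acid regulator Gcn4, was called at -0.96 and was chosen after its value was seen. Of 35 measured genes of sulfur assimilation and methionine 4 were called, all lower. They were JLP1, a sulfonate dioxygenase (-1.01), HOM2, the ATP sulfurylase MET3 (-0.63) and SAM4 (-0.60), and the list median was -0.20.

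**Figure D2:**
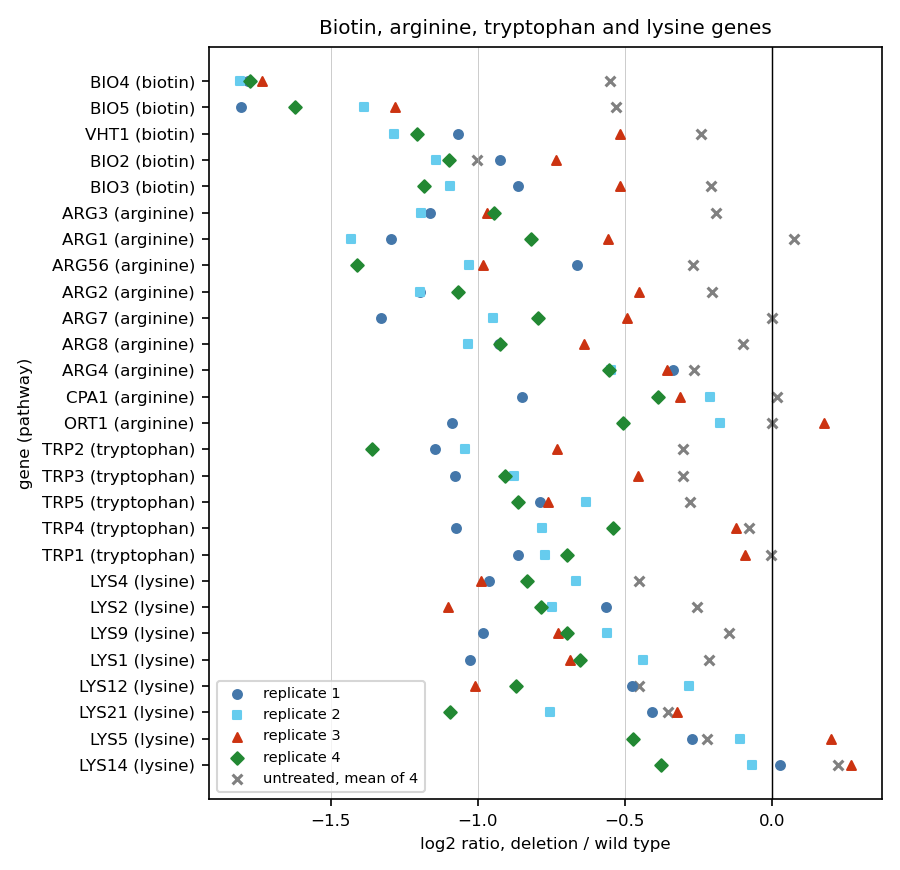
Log2 ratio of deletion over wild type under t-BOOH on each of the 4 arrays (coloured points) for genes of biotin, arginine, tryptophan and lysine supply, with the mean of the 4 untreated arrays as a grey cross. All 5 biotin genes and 8 of 9 arginine genes lie below 0 on all 4 arrays, and most lie left of their untreated mean.

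A group of 7 genes next to chromosome ends had the lowest mean ratios of the comparison, from -2.38 (KLLA0C00132g) to -2.32 (KLLA0B00143g). On replicates 1, 2 and 4 KLLA0C00132g read -2.67, -2.59 and -2.85, and on replicate 3 it read -1.41. The others, KLLA0D20009g, KLLA0A00132g, KLLA0E00133g, KLLA0F00154g, KLLA0D00143g and KLLA0B00143g, had nearly the same values on each array, with replicate 3 from -1.27 to -1.44. They are first or second from an end of 5 chromosomes and of both ends of chromosome D. Their values are uncertain as values of separate genes, because probes of such genes may read shared sequence, which was not tested. Their means were about as low on untreated (-2.03 to -2.23) and arsenite arrays (-2.58 to -2.70). Among the 35 outermost genes measured, these 7 were called and the list median was -1.03, -0.48, 0.02 and -0.75 on replicates 1 to 4. Of the 92 genes called lower, 15 were within 15 genes of an end, where 3.45% of all genes lie. These 15 include the 7 genes above, ARR1 and its neighbour ARR2, and the adjacent BIO5, BIO4 and BIO3. They are therefore not 15 independent positions, and the count is not a measure of enrichment at the ends.

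Further called genes were lower without forming a called pathway. MCH4, a relative of monocarboxylate transporters, read -2.84, -2.17, -0.83 and -2.48 (mean -2.08 ± 0.88, SD, n = 4). Replicate 3 was far less negative than the others. KLLA0F11440g, which has no symbol, averaged -1.65. STE2, the receptor for alpha-factor, read -1.05, -1.10, -1.07 and -1.09, and AGA2, a cell-surface agglutinin subunit, read -0.90, -1.14, -1.56 and -1.31. Both were dim in the deletion strain, with log2 levels of 6.42 to 6.83 for STE2 and 6.57 to 7.42 for AGA2. The median level over all genes in that strain was 10.88 to 10.96. STE2 and AGA2 were the 2 called genes among 32 of mating and cell type. The median of that list was -0.22 and was 0.01 on replicate 3. In multidrug and weak acid efflux 2 of 13 were called, the weak acid pump PDR12 (-0.85) and AQR1 (-0.83). WAR1, the regulator of PDR12, averaged -0.87 and was not called (adjusted p = 0.069). Chosen after their values were seen, FEN2, the pantothenate importer, averaged -1.29, CRC1, the mitochondrial carnitine carrier, -1.34, PHO4, the phosphate starvation regulator, -0.82, ICL1, isocitrate lyase, -0.997, and CYB2, a mitochondrial lactate dehydrogenase, -0.81. GUT2, the mitochondrial glycerol 3-phosphate dehydrogenase, averaged -1.28 and was not called, with 0.24 on replicate 3.

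The 11 genes higher in the deletion strain changed by less, and 1 of them reached 2-fold. MAM33, a mitochondrial matrix protein, read 1.17, 1.09, 1.02 and 0.78, a mean of 1.02 ± 0.17 (SD, n = 4), 2.02-fold higher (limma adjusted p = 0.019). MDH2, cytosolic malate dehydrogenase, read 1.42, 0.86, 0.87 and 0.52 (mean 0.91). COX17, a copper chaperone for cytochrome oxidase, averaged 0.70, and MSP1, an ATPase of the outer mitochondrial membrane, 0.57. The exosome cofactor MPP6 averaged 0.64, the spore wall gene OSW2 0.62 and the ubiquitin receptor of the proteasome RPN13 0.60. The remaining KLLA0F20988g, KLLA0E23497g, KLLA0F05225g and KLLA0E17931g, which have no symbol, averaged 0.95, 0.93, 0.68 and 0.63. KLLA0E23497g had the opposite sign elsewhere, at -0.40 untreated and -0.93 under arsenite. Among all 11, 1 was above 0 on all 4 untreated arrays, where 8.34% of all genes were, and 3 on all 4 arsenite arrays, where 16.3% were.

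**Figure D3:**
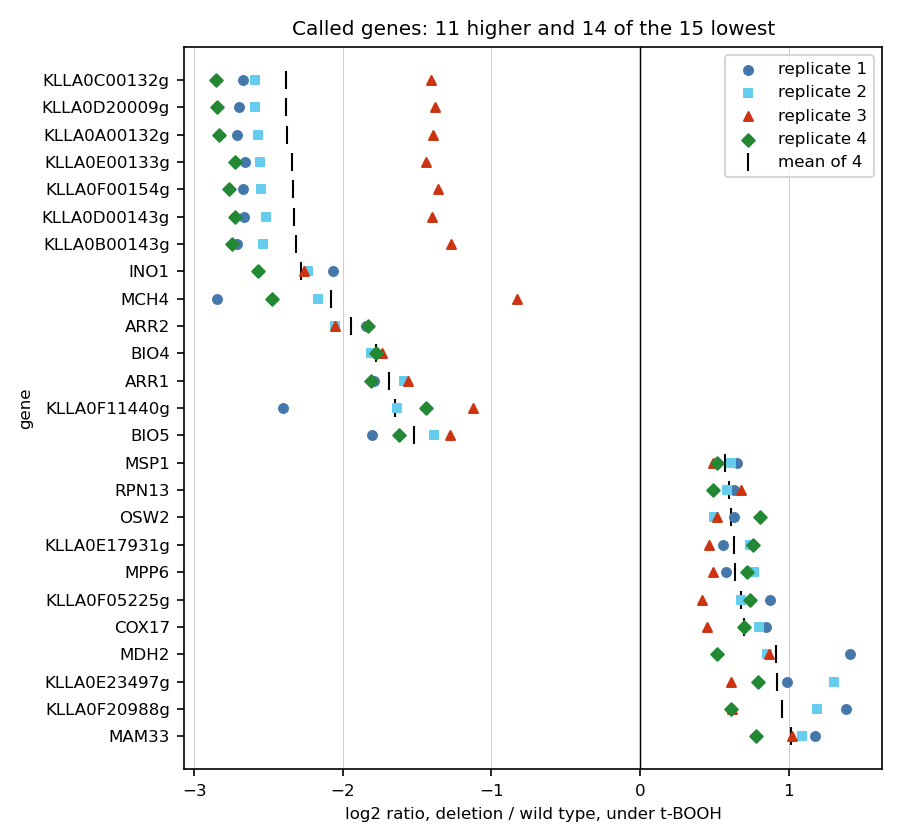
Log2 ratio of deletion over wild type on each t-BOOH array (points) with the mean of 4 (bar) for the 11 genes called higher and 14 of the 15 called genes with the lowest means. Replicate 3 stands apart for the 7 chromosome-end genes and MCH4, and lies close to the other arrays for INO1, ARR2, BIO4 and ARR1.

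Several genes were above 0 on all 4 arrays with larger means than most of these and were not called, and their arrays were spread widely. KLLA0F08371g, without a symbol, read 3.01, 1.66, 0.59 and 0.50 (mean 1.44, limma adjusted p = 0.11). TYE7, a regulator of glycolytic genes, read 1.46, 1.03, 1.14 and 0.34 (mean 0.99, adjusted p = 0.058), and ERO1, the oxidase of protein folding in the endoplasmic reticulum, read 1.45, 0.83, 0.39 and 0.83 (mean 0.87, adjusted p = 0.066). Replicate 1 was the highest array in all 3. On the lower side, KLLA0B14498g read -0.18, -1.71, -2.34 and -1.97 (mean -1.55, adjusted p = 0.076), with replicate 1 nearest to 0.

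In the proteasome list replicate 3 went with the other arrays. Its median was 0.16, 0.20, 0.23 and 0.29 on replicates 1 to 4, and 26 of 50 measured genes were above 0 on all 4 arrays (52.0%, against 15% of all genes). The changes were small and RPN13 was the only called member. UBP6, a proteasome-bound ubiquitin protease, read 1.11, 0.62, 0.42 and 0.62 (limma adjusted p = 0.064), and the median of the list was -0.07 untreated and -0.10 under arsenite.

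For chaperones replicate 3 parted from the other arrays. The median of 32 heat shock and chaperone genes was 1.12, 0.69, -0.26 and 0.62 on replicates 1 to 4. No member was called on the 4 arrays, and 7 were above 0 on all of them (21.9%, against 15% of all genes). HSP26, a small heat shock protein, read 1.65, 2.99, -0.36 and 3.31, and HSP78, a mitochondrial disaggregase, read 2.73, 2.05, -0.24 and 2.62. Their means of 1.90 and 1.79 had limma adjusted p of 0.12 and 0.10. Without replicate 3, 19 of the 32 were called higher, against 10.7% of all genes.

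The levels of each strain show where the arrays parted. Relative to the mean of each gene over the 8 channels, the median log2 level of the chaperone list in the wild type was -0.36, -0.36, 0.25 and -0.46 on replicates 1 to 4. In the deletion strain it was 0.39, 0.22, 0.04 and 0.13. The wild type of replicate 3 was thus above the wild type of the other arrays, and the deletion strain of replicate 3 was below the deletion strain of the others.

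Ribosome biogenesis and a group of 8 glycolytic enzymes parted on replicate 3 as the chaperones did, while ribosomal proteins varied in another way. The median of 143 ribosome biogenesis genes was 0.44, 0.38, -0.57 and 0.30, with 127 of them below 0 on replicate 3, and none was called. MRT4, a ribosome assembly factor, read 1.80, 1.43, -1.78 and 1.39, and NMD3, the export adaptor of the large subunit, 1.28, 1.40, -0.97 and 1.29. Without replicate 3, 57 of the 143 were called higher and 1 lower, against 10.7% and 12.9% of all genes. The 8 measured glycolytic enzymes had medians of 1.61, 1.07, -0.28 and 1.27 and none was called. In the wider list of 23 genes of glycolysis and gluconeogenesis the medians were 0.94, 0.44, -0.01 and 0.21. On replicate 3, 11 of these 23 were above 0 and 12 below. Of the 8 enzymes, 3 were above 0 on all 4 arrays, GPM1, PFK1 and PFK2, each with replicate 3 as the lowest array. GPM1, phosphoglycerate mutase, read 1.80, 1.45, 0.16 and 2.19 (limma adjusted p = 0.08), and the pyruvate kinase PYK2 read 2.44, 1.56, -0.55 and 1.996. For the 57 cytosolic ribosomal protein genes it was replicate 1 that stood out, with medians of -1.37, -0.32, 0.07 and -0.08.

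Peroxide removal and thiol redox, the functions nearest to the stress applied, held no called gene among 28 on the 4 arrays. Without replicate 3, 2 of the 28 were called higher and 7 lower, against 10.7% and 12.9% of all genes. The list median was -0.33, -0.13, 0.20 and -0.08, and 1 gene was above and 2 below 0 on all 4 arrays, against 15% and 16% of all genes. SOD1, the cytosolic superoxide dismutase, read -1.26, -1.33, -0.10 and -0.68 (limma adjusted p = 0.098). GRX8, a glutaredoxin, read 0.88, 1.12, -0.15 and 1.30 (limma adjusted p = 0.12), with replicate 3 lowest. In other genes replicate 3 was the highest array, of which TSA2 and OYE2 were chosen after their values were seen. The thioredoxin TRX2 read -1.20, -0.99, 1.19 and -0.48, the peroxiredoxin TSA2 -1.07, -0.54, 0.87 and -0.04, and the old yellow enzyme OYE2 0.52, -0.51, 1.77 and -0.56. The median level of the list in the wild type was 0.35, 0.16, -0.19 and 0.02 on replicates 1 to 4, and in the deletion strain -0.11, -0.12, -0.01 and -0.15. A p that misses the threshold does not show that these genes were alike in the 2 strains.

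**Figure D4:**
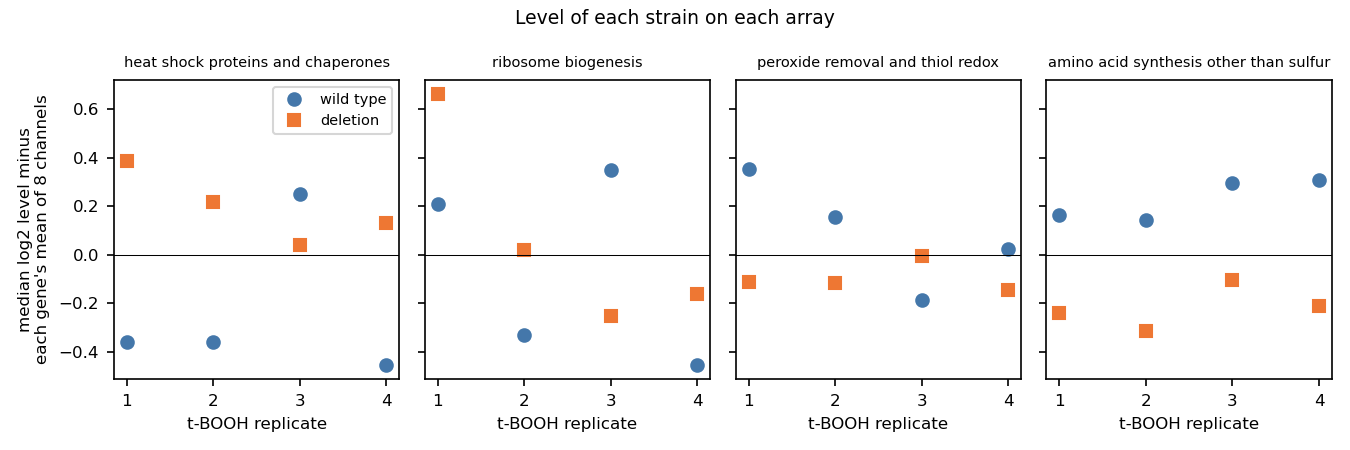
Median log2 level of 4 gene lists in each strain on each t-BOOH array, relative to the mean of each gene over the 8 channels. Deletion and wild type change order on replicate 3 for chaperones (0.04 against 0.25), ribosome biogenesis and peroxide removal, while for amino acid synthesis the deletion strain is lower on all 4 arrays.

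The lists not yet described had medians near those of all genes or few called members. The median was 0.19 for ergosterol synthesis (0 of 26 called), 0.11 for the respiratory chain and ATP synthase (1 of 42, CYB2), 0.01 for iron uptake and use (0 of 24), -0.08 for pentose phosphate and NADPH (0 of 12), -0.01 for trehalose, glycogen and glycerol (0 of 10) and 0.32 for histones (0 of 9). Leaving out replicate 1 took the ergosterol median to -0.02 and the respiratory median to 0.04, and leaving out replicate 3 took that of trehalose, glycogen and glycerol to -0.225. The median was 0.56 for the list of glycolysis and gluconeogenesis with 2 of 23 called, MDH2 higher and ICL1 lower, and -0.36 for arsenic detoxification with ARR1 and ARR2 called of 5. Genes often used as strain markers had a median of -0.24, with LYS2 called of 8. Of these 8, 6 were below 0 on all 4 arrays (75%, against 16% of all genes). LYS2 and TRP1 among them were also counted in the lysine and tryptophan branches. URA3 read between -0.17 and -0.25 on all 4 arrays.

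**Figure D5:**
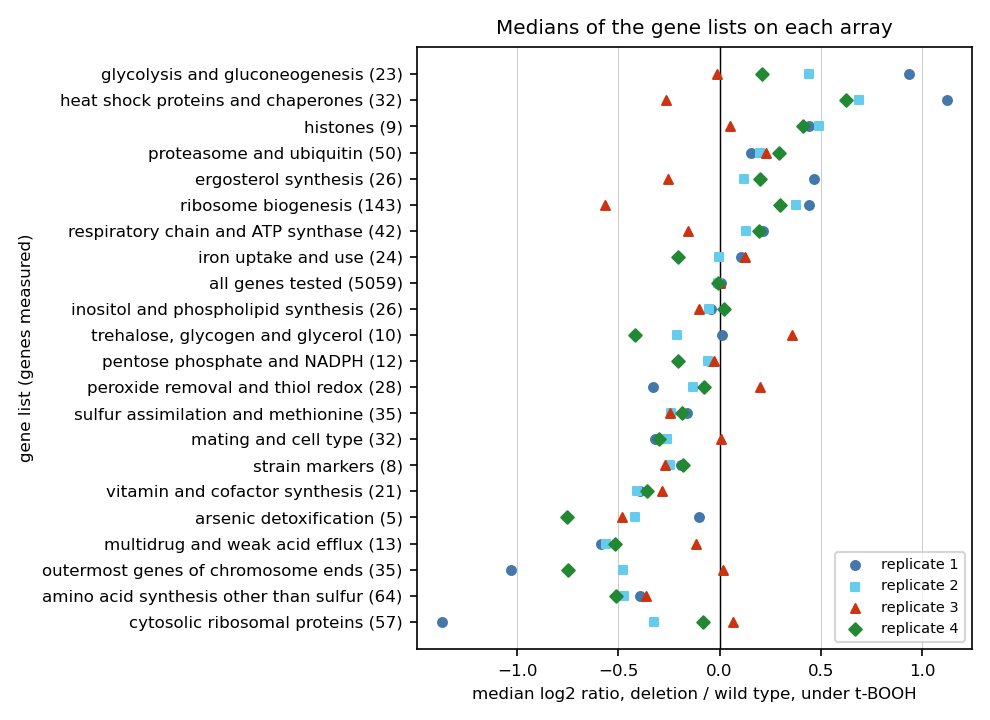
Median log2 ratio of deletion over wild type on each t-BOOH array for the 21 gene lists and for all 5059 genes tested, with the number of genes measured in brackets. The arrays lie close together for amino acid, vitamin and sulfur synthesis and for the proteasome, and replicate 3 is apart for ribosome biogenesis and chaperones.

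How far the lower genes were also lower without t-BOOH was read from the untreated arrays, which hold other samples. Of the 92 genes called lower, 50 were below 0 on all 4 untreated arrays, against 10.2% of all genes, and 78 had a mean below 0. Their median was -0.24 untreated and -0.94 under t-BOOH. On the arsenite arrays 29 of them were below 0 on all 4, against 17.8% of all genes, and the median was -0.09.

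The difference between the t-BOOH and the untreated ratio was tested over 8 arrays, 4 of each condition. It was called for 6 genes (0.119%), all more negative under t-BOOH, and 966 genes (19.1%) had an unadjusted p under 0.05. In INO1 the difference was -1.14 ± 0.16 (SE, limma adjusted p = 0.033), from a mean of -1.14 untreated to -2.28. In ARG3 it was -0.88, from -0.19 to -1.07. Others among the 6 were the plasma membrane gene PUN1 (-1.20), the glutathione exchanger GEX1 (-1.12) and KLLA0E04049g (-1.16). PUN1, GEX1 and KLLA0E04049g had means of 0.23, 0.39 and 0.06 untreated and of -0.97, -0.72 and -1.10 under t-BOOH. No difference was called when any of the other 7 arrays was left out, and 742 were called without t-BOOH replicate 3. The untreated arrays lay on slide 1 and the t-BOOH arrays on slide 2, so slide and condition cannot be told apart.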

How the data were processed

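The members and the gene lists were chosen with earlier results of these data known. Per the file headers, Feature Extraction 10.7.3.1 read the scans, and the deposited spot and background values are median pixel intensities without normalization. The log10 ratios and processed intensities of the scanner software are also deposited, the latter used as an alternative. The authors' deposited table holds log2 values per array. Against the ratios computed here they had Pearson r of 0.991 to 0.998 and slopes of 1.03 on the t-BOOH arrays, which gives their direction as deletion over wild type, and column medians were 0.01, -0.01, 0.01 and -0.03 on replicates 1 to 4. Their normalization and centring, and the build of the array design, are not given in the sources used here.

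Ratios were computed with limma 3.58.1 in R 4.3.3, with normexp background correction (offset 50) and loess within arrays, in which control spots, outlier flags and 3 negative-control names took no part in the curve. Median signals replaced the mean signals planned. Spots were averaged per gene, and 22 genes not well above background on at least 2 arrays were left out. No spot was saturated, and precision is limited by the number of arrays. The ratios of the 4 arrays were tested against 0 with lmFit and eBayes (3 residual and 3.31 prior degrees of freedom) with Benjamini-Hochberg adjustment, and the difference from untreated over 8 arrays. The test was also run on simulated ratios with independent noise on each array. That setting does not cover an array that departs from the others as replicate 3 does. Channel levels were taken after loess and Aquantile. A RefSeq table (assembly ASM251v1), used for names and gene order, matched 5069 identifiers and left 12, with 3955 symbols. Whether replicates are separate cultures rests on the design text.

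Named genes are ARR1 and ARR2, the 15 highest and 15 lowest called, and the 15 highest and lowest with the same sign on all 4 arrays. They also include the 2 members of each of the 21 lists with the largest absolute mean ratio. Added to these are the 8 genes with the largest gap of replicate 3 in each direction, and up to 8 called differences in each direction. The replicate numbers were not used to pair t-BOOH with untreated arrays in the main test. Across genes, the deviations of same-numbered arrays correlated at 0.06, 0.06, -0.05 and -0.12. Such correlations cannot show whether the arrays were paired. Alternatives were a dye coefficient, a fit on all 12 arrays, other background and scaling settings, no filter on dim genes, another spread estimate, the deposited table, a replicate block and each array left out. Promoter motifs were not analysed here. Of the genes this rule names, 1 is not reported here. It stays in the fits and in counts over lists and all genes, and is left out of the arginine group.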

Additional observations from a re-analysis of the deposited data

Results flagged for a closer look

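A gap test for 4 samples (gap to the nearest array over the range, above Dixon's critical value) marked 15 of 106 values. Chance marks about 1 in 20, but the values include 16 genes named for the gap of replicate 3, MRT4, KRE33 and ATH1 among them, and genes are not independent, so that rate does not apply to this count. Of these, 14 were replicate 3 and 12 were single genes. Among list medians it marked ribosome biogenesis on replicate 3 (-0.57, the others 0.30 to 0.44), multidrug and weak acid efflux on replicate 3 (-0.12, the others -0.59 to -0.52) and pentose phosphate and NADPH on replicate 4 (-0.20, the others -0.06 to -0.03). At chromosome ends, replicate 3 was less negative in KLLA0E00133g (-1.44), KLLA0F00154g (-1.36), KLLA0D00143g (-1.40) and KLLA0B00143g (-1.27), with the others between -2.77 and -2.52. It was below the other arrays in the thiamine pyrophosphokinase THI80 (0.0032, the others 1.29 to 1.46), in NMD3 (-0.97, the others 1.28 to 1.40), in the ribosome factors MRT4 (-1.78) and KRE33 (-1.69), in the acetyl-CoA carboxylase ACC1 (-0.11) and in ERG20 of sterol synthesis (-0.30). It was above them in the trehalase ATH1 (1.46, the others -0.87 to -0.54) and in KLLA0E04049g (-0.84, the others -1.20 to -1.18).

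The ratio differed between t-BOOH and untreated arrays, by limma's test of the difference over 8 arrays, in PUN1 (-1.20), KLLA0E04049g (-1.16), INO1 (-1.14), GEX1 (-1.12) and ARG3 (-0.88), each lower under t-BOOH. The values on both sides are given with the comparison.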

How the results depend on the processing

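The 103 calls (11 higher, 92 lower) became 5, 0 and 5 with a dye coefficient, 913, 375 and 538 in the fit on all 12 arrays, 4, 0 and 4 with median centring in place of loess, and 0, 0 and 0 with trend and robust spread. The higher count was 6 with processed signals, 5 without background correction, 4 with offset 16, 29 with scale normalization (154 called in all), 4 with the authors' deposited table and 7 with negative-control spots in the loess curve, an alternative chosen after seeing the data. Leaving out an array gave 4 to 1195 called, 0 to 540 higher and 4 to 655 lower. ARR1, ARR2, BIO4 and INO1 were called in each alternative except trend and robust spread. The 6 differences from untreated became 3 with a dye coefficient, 155 with all 12 arrays, 0 with median centring and 0 to 742 leaving out an array. With a replicate block, 0 were called (932 at an unadjusted p under 0.05). Whether the replicate numbers pair these arrays is not known. List medians moved to 0.31 (proteasome) and -0.19 (strain markers) with median centring, to -0.39 (mating) and -0.41 (vitamins) with processed signals and to -0.34 (vitamins) with the deposited table. Leaving out an array gave -0.27 to -0.14 for sulfur and -0.36 to -0.24 for vitamins. Wider ranges, within the spread between arrays, were 0.31 to 0.80 for chaperones, 0.042 to 0.37 for ribosome biogenesis, -0.61 to -0.13 for ribosomal proteins, -0.023 to 0.35 for ergosterol and -0.225 to 0.14 for trehalose, glycogen and glycerol. TRM2, not called, was at -0.048 with scale normalization against 0.10, and leaving out an array gave -0.35 to 0.83 for TRM2 and -0.69 to 0.086 for ATH1. The cause was not tested.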
